A study of Mus musculus with 8 samples.

Results

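The acute phase reactant genes described here are 10 genes of the mouse liver, chosen by symbol: the serum amyloid A genes Saa1, Saa2, Saa3 and Saa4, the orosomucoid genes Orm1, Orm2 and Orm3, and Lcn2, Hp and Serpina3n. All 10 were found among the 22013 genes of the deposited table, each in a single row. Expression was measured by sequencing of oligo(dT)-enriched RNA from 8 samples of mouse liver, in 4 libraries titled as resmetirom and 4 titled as control. Resmetirom activates thyroid hormone receptor beta, and the series describes it in a diet model of steatohepatitis. In that model, mice ate fructose, palmitate and cholesterol for 12 weeks, and resmetirom was injected into the peritoneum at 5 mg/kg/day for 8 weeks, beginning 4 weeks into the diet. The vehicle is described as 0.5% carboxymethyl cellulose sodium with 0.4% Tween-80. Neither diet nor vehicle is labelled for the control libraries, and an effect of either one and an effect of resmetirom cannot be told apart. The sources used here do not give strain, sex or age. Nor is it stated whether libraries came from separate animals, so p-values cover only the spread among libraries, which may be technical.

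Acute phase reactants are plasma proteins that hepatocytes make in larger or smaller amounts during inflammation, injury and infection. Interleukin-6, acting through gp130 and STAT3, and interleukin-1 and tumour necrosis factor, acting through NF-kB, are the known inducers, and C/EBP transcription factors bind many of the promoters. In mice, serum amyloid A proteins and orosomucoid are among the most inducible of them, while albumin, transthyretin and retinol-binding protein are classed as negative reactants because their synthesis drops in the response.

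The libraries held 16787561 to 19887539 counts. Levels are given as CPM, the count divided by library size in units of 1e+06 counts, scaled by TMM factors, which correct for the makeup of each library and were 0.804 to 0.879 in resmetirom replicates 2 to 4, 1.06 in resmetirom replicate 1 and 1.08 to 1.16 in the control libraries. The tissue label was checked with 11 hepatocyte markers, all of which were tested. Their CPM summed to 110088 to 117547 in the resmetirom libraries and 90647 to 102949 in the control libraries. Cps1 and Serpina1a rose and 9 were not called, where 2.6% of all tested genes rose and 1.99% fell. Of the 11, 8 had a log2 fold change above 0 and 3 had one below 0. Among the 3 was Serpina1c, at -0.61 (edgeR adjusted p = 0.0536). By edgeR's test 6 of the 11 had an unadjusted p under 0.05, as had 17.8% of all tested genes. The difference between the summed CPM of the groups depends on the TMM factors. In TPM, a length-corrected scale without them, Alb averaged 47625 in resmetirom and 53357 in control libraries. Serpina1a averaged 3485 and 3448 TPM, and Cps1 1363 and 1115 TPM. Among these reactants a pair of libraries stood apart from their own groups: resmetirom replicate 3 was the highest of its group for 8 of the 9 members that passed the filter on low counts, and control replicate 2 was the highest of its group for 8 of the same 9. The fitted changes of the members are therefore also given without each of these libraries, where the fit held the gene. How often these libraries were highest among all tested genes is not given here.

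The genes lie in 2 clusters and at 3 single sites on GRCm38, by the GENCODE M21 annotation. The serum amyloid A genes occupy 42316 bases of chromosome 7, in the order Saa3 (46711998 to 46715700), Saa4 (46727998 to 46732603), Saa1 (46740497 to 46742980) and Saa2 (46751790 to 46754313). Saa1 and Saa2 are transcribed away from each other, and 8809 bases lie between them. The orosomucoid genes occupy 21319 bases of chromosome 4, in the order Orm1 (63344560 to 63348163), Orm3 (63356162 to 63359511) and Orm2 (63362449 to 63365878), all on the plus strand. Lcn2 lies on chromosome 2 (32384633 to 32388252), Hp on chromosome 8 (109575128 to 109579172) and Serpina3n on chromosome 12 (104406729 to 104414329).

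Promoter sequence is shown for 4 genes of these clusters: Saa1 and Saa2, which are the near-copies that varied most between libraries, and Saa3 and Orm2, which fell. RefSeq on GRCm38.p6 gave a window of 250 bases before and 50 bases after the start for 8 of the 10 genes, all but Orm1 and Hp. Each line gives the 250 bases before the RefSeq start, 5′ to 3′ on the gene's own strand, from chr7:46742981-46743230 (minus strand), chr7:46751583-46751832 (plus strand), chr7:46715677-46715926 (minus strand) and chr4:63362199-63362448 (plus strand), and capitals mark matches to TTGCNNAA, the letters searched for C/EBP, on either strand.
Saa1: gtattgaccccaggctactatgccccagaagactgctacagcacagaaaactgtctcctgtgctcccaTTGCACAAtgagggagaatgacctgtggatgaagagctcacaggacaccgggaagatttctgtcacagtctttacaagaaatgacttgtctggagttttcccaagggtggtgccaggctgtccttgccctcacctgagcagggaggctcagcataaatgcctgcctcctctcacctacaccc
Saa2: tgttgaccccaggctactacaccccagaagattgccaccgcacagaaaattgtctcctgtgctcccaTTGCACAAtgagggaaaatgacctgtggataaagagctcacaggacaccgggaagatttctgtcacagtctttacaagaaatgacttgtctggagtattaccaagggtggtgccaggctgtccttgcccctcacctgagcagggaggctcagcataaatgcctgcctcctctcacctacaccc
Saa3: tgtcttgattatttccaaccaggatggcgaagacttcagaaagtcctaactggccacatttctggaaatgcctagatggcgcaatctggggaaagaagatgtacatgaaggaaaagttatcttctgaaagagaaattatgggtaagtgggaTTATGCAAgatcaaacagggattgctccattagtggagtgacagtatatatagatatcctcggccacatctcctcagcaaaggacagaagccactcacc
Orm2: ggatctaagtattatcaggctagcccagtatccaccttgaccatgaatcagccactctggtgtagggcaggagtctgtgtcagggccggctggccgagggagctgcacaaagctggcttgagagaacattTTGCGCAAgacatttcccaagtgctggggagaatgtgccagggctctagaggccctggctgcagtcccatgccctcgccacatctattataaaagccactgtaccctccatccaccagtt

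The letters TTGCNNAA stood in the window of 7 of the 8 genes, all but Serpina3n, and in 10.8% of 32851 promoter windows of the same length. The windows of Saa1 and Saa2 are near-copies, as are those of Orm2 and Orm3, so the 7 are not independent of each other. In Saa1 and Saa2 the match was TTGCACAA, 182 and 183 bases before the start, and in Orm2 it was the palindrome TTGCGCAA, 120 bases before it. The NF-kB motif searched, with 3 free bases in its middle, was present in 5.56% of all windows and was found among the 8 in Serpina3n alone. CTGGGAA, a core of interleukin-6 response elements present in 11.1% of all windows, was found in Orm3 alone, past its start. TTCNNNGAA, searched for STAT proteins and present in 8.30% of windows, was in none of the 8. All motifs were searched on both strands, no matches to different motifs overlapped, and a match of letters in a short window does not show binding.

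The windows of Saa1 and Saa2 were identical at 287 of 299 aligned bases, and those of Orm2 and Orm3 at 263 of 295. Their transcripts are near-copies as well: the Saa1 and Saa2 transcripts were 94.4% identical, Orm1 and Orm2 91.0%, Orm1 and Orm3 86.5%, and Orm2 and Orm3 88.5%. Of the stretches of 50 bases in the Saa1 transcript 9.11% occurred unchanged in Saa2, and of those in Orm1 20.4% occurred in Orm2. The sources used here do not say how the authors assigned reads that match several copies or whether strand was used, so counts of single copies within these pairs are uncertain, and sums are given beside them. Saa1 shared 0 such stretches with Saa3 or Saa4.

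Compared with the control libraries, resmetirom libraries had less Orm1, Orm2 and Saa3. Of the 9 members tested, 3 fell and none rose by edgeR's quasi-likelihood test at an adjusted p under 0.05, where 1.99% of 12207 tested genes fell and 2.6% rose. At an unadjusted p under 0.05, Saa4 was added to the 3 lower ones and none was higher, where 8.36% of all tested genes were lower and 9.48% higher by that rule. DESeq2 called 4 members lower and 0 higher, and 3.37% of all tested genes lower and 4.36% higher. The median log2 fold change of the 9 was -1.19, against -0.0043 over all tested genes. The 3 called genes stayed called with each single library left out. Of the other members, Saa1, Saa2 and Lcn2 differed at least 4.21-fold between the highest and lowest library of 1 group. Together the 10 genes came to 2808, 3708, 4364 and 3034 CPM in resmetirom replicates 1 to 4 and to 4554, 6118, 3681 and 3576 CPM in control replicates 1 to 4. Most of this sum was Hp, and the groups overlapped.

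**Figure D1:**
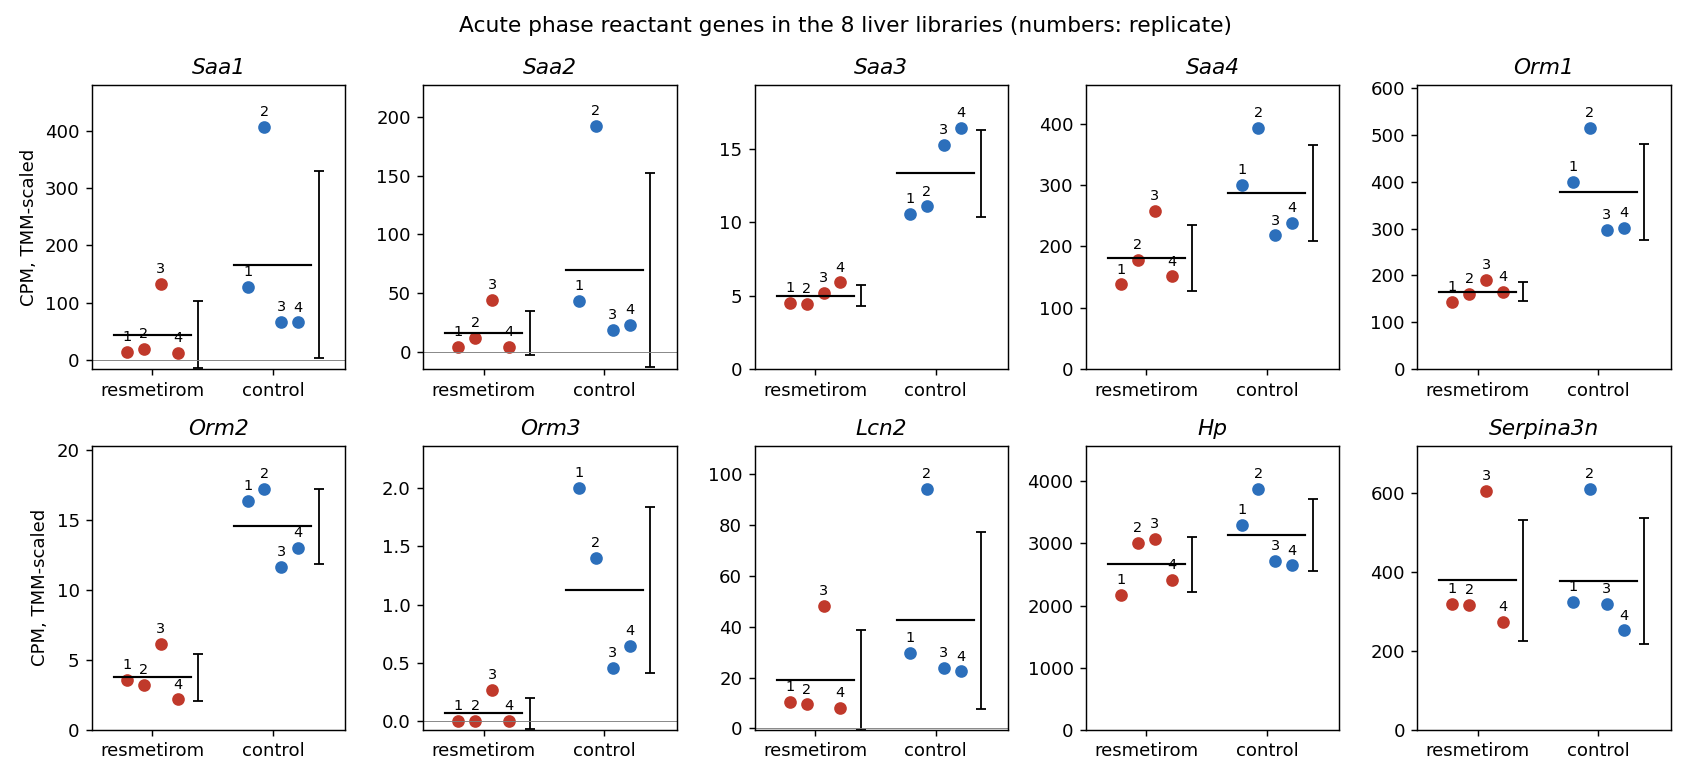
TMM-scaled CPM of the 10 genes in each library, with resmetirom libraries in red and control libraries in blue, the replicate number above each point, a horizontal bar for the group mean and an error bar for the SD (n = 4 each). Orm1, Orm2, Orm3 and Saa3 had no overlap between the groups, while resmetirom replicate 3 and control replicate 2 stood above their groups for Saa1, Saa2, Lcn2 and Serpina3n.

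The orosomucoids, also called alpha-1-acid glycoproteins, are lipocalins of plasma that bind basic and neutral drugs. Orm1 was at 144, 161, 191 and 165 CPM in resmetirom replicates 1 to 4 and at 400, 515, 297 and 301 CPM in control replicates 1 to 4. All 4 resmetirom libraries lay below all 4 control libraries, which was so for 5.5% of tested genes, while 6.32% had all resmetirom libraries above all control libraries. The log2 fold change of Orm1 was -1.19 (SE 0.17, edgeR adjusted p = 0.00296), which is 0.437 of the control level. It was -1.01 without control replicate 2 and -1.27 without resmetirom replicate 3. Orm1 was the second most abundant of the 10 per transcript length, at 279 ± 22 TPM in resmetirom libraries and 903 ± 215 TPM in control libraries (SD, n = 4 each).

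Orm2, a copy expressed at a small part of the Orm1 level, was at 3.55, 3.18, 6.13 and 2.17 CPM in resmetirom replicates 1 to 4 and at 16.3, 17.2, 11.6 and 13.003 CPM in control replicates 1 to 4. The groups were separated, with resmetirom replicate 3 nearest to the control libraries. Its log2 fold change was -1.95 (SE 0.27, edgeR adjusted p = 0.00161), being -2.29 without resmetirom replicate 3 and -1.86 without control replicate 2. Of the counts of Orm1 and Orm2 together, Orm2 held 2.41%, 1.94%, 3.10% and 1.29% in resmetirom replicates 1 to 4, against 3.92%, 3.24%, 3.77% and 4.14% in control replicates 1 to 4. These shares did not overlap between the groups, and the exact 95% binomial intervals, which cover counting error only, reached 2.51% to 3.79% in resmetirom replicate 3 and 2.91% to 3.59% in control replicate 2, so that the closest libraries could not be told apart at this depth.

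Orm3 was close to the limit of detection, with 0, 0, 4 and 0 counts in resmetirom replicates 1 to 4 and 43, 29, 10 and 13 counts in control replicates 1 to 4. It was the member that did not pass the filter on low counts. A count of 0 allows up to 3 counts, or 0.169 to 0.203 CPM in those 3 libraries. The ratio of the summed counts, scaled for library size, was 0.0565 (exact 95% binomial interval 0.0151 to 0.149, counting error only). With no filter on low counts Orm3 was called lower, with a fitted log2 fold change of -4.0 (edgeR adjusted p = 0.0232), in a fit where 1.59% of 16019 genes were called lower. Orm3 passed the filter in 5 of the fits with 1 library left out. It did so through its counts in control libraries, so the filter fixed the direction of its change there. In these fits it was called when control replicate 3 was dropped (edgeR adjusted p = 0.0320) and when resmetirom replicate 3 was (0.0150). It was not called without resmetirom replicate 1, 2 or 4 (adjusted p = 0.0685, 0.0792 and 0.0956). Without resmetirom replicate 3 every remaining resmetirom library was at 0, so the fitted log2 fold change of -7.42 there depends on the prior count. Summed over the 3 copies, orosomucoid counts came to 148, 164, 198 and 168 CPM in resmetirom replicates 1 to 4 and to 419, 533, 309 and 315 CPM in control replicates 1 to 4, a log2 ratio of means of -1.22. Nearly all of this sum was Orm1, so it says nothing on how shared reads were divided among the copies.

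Serum amyloid A proteins are apolipoproteins of high-density lipoprotein. Saa1 and Saa2 are the forms that hepatocytes release in the acute phase, Saa4 is made constitutively, and mouse Saa3 is expressed in macrophages and adipose tissue as well as in inflamed liver. Saa3 was at 4.51, 4.42, 5.19 and 5.90 CPM in resmetirom replicates 1 to 4 and at 10.6, 11.1, 15.3 and 16.4 CPM in control replicates 1 to 4. Every resmetirom library lay below every control library, and resmetirom replicate 3 and control replicate 2 did not stand out. The log2 fold change was -1.41 (SE 0.19, edgeR adjusted p = 0.00102), -1.43 without resmetirom replicate 3 and -1.49 without control replicate 2.

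In bulk RNA, fewer cells of a type and less RNA per cell cannot be told apart, which bears on Saa3. Of all tested genes 1.99% fell and 2.6% rose by edgeR's test, and 17.8% had an unadjusted p under 0.05. Of 15 macrophage and monocyte markers, all tested, 0 were called by edgeR's test in either direction, 0 had an unadjusted p under 0.05, and DESeq2 called 0. Their summed level was 522 to 1371 CPM in resmetirom libraries and 872 to 1298 CPM in control libraries, and within each group it ran in another order than Saa3: it was highest in resmetirom replicate 1 and control replicate 3, and Saa3 in replicate 4 of each group. Of 7 adipocyte markers 2 were tested, of which Fabp4 fell, with a log2 fold change of -0.996 (edgeR adjusted p = 0.00413). The adipocyte-defining genes Adipoq, Retn and Lep had 0 counts in all 8 libraries. The adipsin gene Cfd, on the same list, had 0 counts in all 4 resmetirom libraries and 36, 16, 6 and 7 counts in control replicates 1 to 4, the same direction as Saa3. Mostly through Cidec, which overlapped between the groups, the list summed to 53.2 to 140 CPM in resmetirom libraries and 78.1 to 183 CPM in control libraries. The part of these cells in the Saa3 result was not tested.

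Saa1 varied more between libraries of 1 group than between the groups. It was at 14.5, 18.8, 132 and 12.4 CPM in resmetirom replicates 1 to 4 and at 128, 407, 66.2 and 65.6 CPM in control replicates 1 to 4. Resmetirom replicate 3 lay above 3 of the 4 control libraries, and the other 3 resmetirom libraries lay below every control library. The highest library was 10.7 times the lowest in the resmetirom group and 6.20 times the lowest in the control group. The fitted log2 fold change of -1.91 (SE 1.09, edgeR adjusted p = 0.453) had a 95% interval of -4.54 to 0.73. It was -3.45 without resmetirom replicate 3 (edgeR adjusted p = 0.122) and -0.96 without control replicate 2 (adjusted p = 0.732), so the size rested on these 2 libraries.

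Saa2 was at 3.95, 11.9, 43.9 and 4.34 CPM in resmetirom replicates 1 to 4 and at 43.6, 192, 18.9 and 23.0 CPM in control replicates 1 to 4. The same pair of libraries was high, and the groups overlapped through resmetirom replicate 3. The log2 fold change was -2.12 (SE 1.16, edgeR adjusted p = 0.429), being -3.37 without resmetirom replicate 3 and -0.84 without control replicate 2. Saa1 and Saa2 together summed to 18.4, 30.7, 176 and 16.7 CPM in resmetirom replicates 1 to 4 and to 171, 599, 85.0 and 88.5 CPM in control replicates 1 to 4, which overlapped in the same way. Saa2 made up 21.4%, 38.8%, 25.0% and 25.9% of these counts in resmetirom replicates 1 to 4 and 25.5%, 32.1%, 22.2% and 26.0% in control replicates 1 to 4. Resmetirom replicate 2 had the largest share of Saa2 (exact 95% binomial interval 34.4% to 43.3%) although its sum was low, and control replicate 2 followed (31.3% to 33.0%).

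Saa4 was at 138, 178, 257 and 151 CPM in resmetirom replicates 1 to 4 and at 300, 393, 218 and 237 CPM in control replicates 1 to 4. Resmetirom replicate 3 was above control replicates 3 and 4, and the other resmetirom libraries were below all controls. Its log2 fold change of -0.67 (SE 0.24, edgeR adjusted p = 0.192) was not called, but it was called without resmetirom replicate 3 (-0.88, adjusted p = 0.0393) and by DESeq2 (adjusted p = 0.0450). Without control replicate 2 it was -0.48.

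Lcn2 encodes lipocalin 2, an iron-scavenging protein that binds bacterial siderophores and that neutrophils and stimulated hepatocytes make. It was at 10.5, 9.42, 48.2 and 7.93 CPM in resmetirom replicates 1 to 4 and at 29.6, 94.2, 23.6 and 22.4 CPM in control replicates 1 to 4. Its order of libraries was close to that of Saa1: resmetirom replicate 3 exceeded 3 control libraries, and the other 3 resmetirom libraries lay below all controls. The log2 fold change was -1.16 (SE 0.81, edgeR adjusted p = 0.557), -2.19 without resmetirom replicate 3 and -0.41 without control replicate 2. Of 12 neutrophil markers only 3 passed the filter and 0 were called by edgeR or DESeq2, with 0 at an unadjusted p under 0.05. Of all tested genes 17.8% had such an unadjusted p by edgeR's test. The list summed to 3.46 to 8.99 CPM in resmetirom libraries and 5.49 to 9.45 CPM in control libraries, with 0 counts of Ly6g and Mpo in all 8 libraries. The sum was 8.57, 3.77, 8.99 and 3.46 CPM in resmetirom replicates 1 to 4 and 9.31, 5.56, 9.45 and 5.49 CPM in control replicates 1 to 4. It was highest in resmetirom replicate 3, as was Lcn2, but not in control replicate 2. The part of neutrophils in the Lcn2 values was not tested.

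Serpina3n, a secreted inhibitor of serine proteases, had nearly the same mean in both groups, 378 ± 153 CPM in resmetirom libraries and 376 ± 160 CPM in control libraries (SD, n = 4 each). It was at 319, 315, 605 and 274 CPM in resmetirom replicates 1 to 4 and at 325, 611, 318 and 252 CPM in control replicates 1 to 4. Resmetirom replicate 3 and control replicate 2 were about equally high, and the other 6 lay between 252 and 325 CPM. The log2 fold change was 0.0082 (SE 0.36, edgeR adjusted p = 0.995), with a 95% interval of -0.83 to 0.85, so changes within that interval could not be told apart from 0. It was -0.31 without resmetirom replicate 3 and 0.34 without control replicate 2. Its neighbours in the Serpina3 family, with which reads may be shared, were not called either: Serpina3m was at 0.46 (SE 0.22) and Serpina3k at -0.21 (SE 0.22).

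Hp encodes haptoglobin, which binds free haemoglobin. It was the most abundant member, at 2580 ± 225 TPM in resmetirom libraries and 4321 ± 642 TPM in control libraries (SD, n = 4 each), on a scale that is not corrected for library makeup. It was at 2170, 3006, 3075 and 2411 CPM in resmetirom replicates 1 to 4 and at 3299, 3877, 2712 and 2645 CPM in control replicates 1 to 4, so the groups overlapped. The log2 fold change was -0.23 (SE 0.15, edgeR adjusted p = 0.483; 95% interval -0.56 to 0.093), and it was -0.31 without resmetirom replicate 3 and -0.12 without control replicate 2. The call depended on scaling. With library sizes as the sole scaling, which moved the median of all tested genes to -0.31 and called 16.1% of them lower, Hp was called at -0.55 (adjusted p = 0.0133) and Saa4 at -0.99 (adjusted p = 0.00458).

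**Figure D2:**
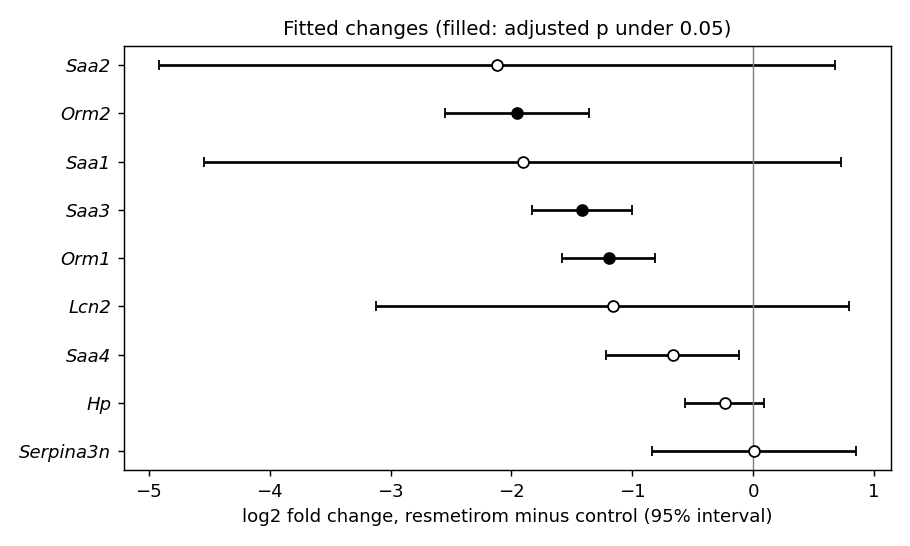
Fitted log2 fold change, resmetirom minus control, of the 9 tested genes, with 95% intervals and filled points at an edgeR adjusted p under 0.05. Orm2, Saa3 and Orm1 had intervals below 0, from -2.55 at the lowest to -0.81 at the highest. The interval of Saa4, which is not adjusted for the number of genes, also lay below 0, but Saa4 was not called, and Saa1, Saa2 and Lcn2 had the widest intervals.

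Per transcript length, the order of mean levels in resmetirom libraries was Hp, Orm1, Serpina3n (236 ± 70.8 TPM), Saa4 (111 ± 18.6 TPM), Saa1 (86.3 ± 103 TPM), Saa2 (30.0 ± 32.3 TPM), Lcn2 (25.4 ± 22.3 TPM), Saa3 (11.9 ± 1.96 TPM), Orm2 (6.29 ± 2.37 TPM) and Orm3 (0.0958 ± 0.192 TPM). In control libraries it was Hp, Orm1, Saa1 (500 ± 479 TPM), Serpina3n (337 ± 134 TPM), Saa4 (254 ± 61.4 TPM), Saa2 (200 ± 235 TPM), Lcn2 (85.3 ± 67.6 TPM), Saa3 (45.1 ± 12.0 TPM), Orm2 (34.8 ± 5.08 TPM) and Orm3 (2.66 ± 1.59 TPM), all as SD with n = 4. In resmetirom libraries the steps from Hp to Orm1, Serpina3n to Saa4, Saa3 to Orm2 and Orm2 to Orm3 exceeded the SD of each neighbour, and the other steps did not. In control libraries only the steps from Hp to Orm1 and from Orm2 to Orm3 did. TPM sum to a fixed total and are not corrected for library makeup, so the order is given within each group. Where TPM are printed for both groups, the difference between them includes library makeup.

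Library by library, resmetirom replicate 3 and control replicate 2 lay above their group means for the 10 genes, except Saa3 in control replicate 2. Relative to its group mean on the log2 scale, resmetirom replicate 3 was higher by 2.35 for Saa1, 2.16 for Saa2, 1.78 for Lcn2, 0.79 for Orm2, 0.75 for Serpina3n, 0.55 for Saa4, 0.22 for Orm1 and 0.22 for Hp, and by 0.06 for Saa3. Control replicate 2 was higher by 2.14 for Saa2, 1.73 for Saa1, 1.43 for Lcn2, 0.78 for Serpina3n, 0.49 for Saa4, 0.48 for Orm1, 0.33 for Hp and 0.26 for Orm2, and stood at -0.24 for Saa3. In both libraries Saa1, Saa2 and Lcn2 had the largest excess of the tested genes. Saa3 deviated most in control replicate 4 (0.32) and control replicate 1 (-0.31).

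**Figure D3:**
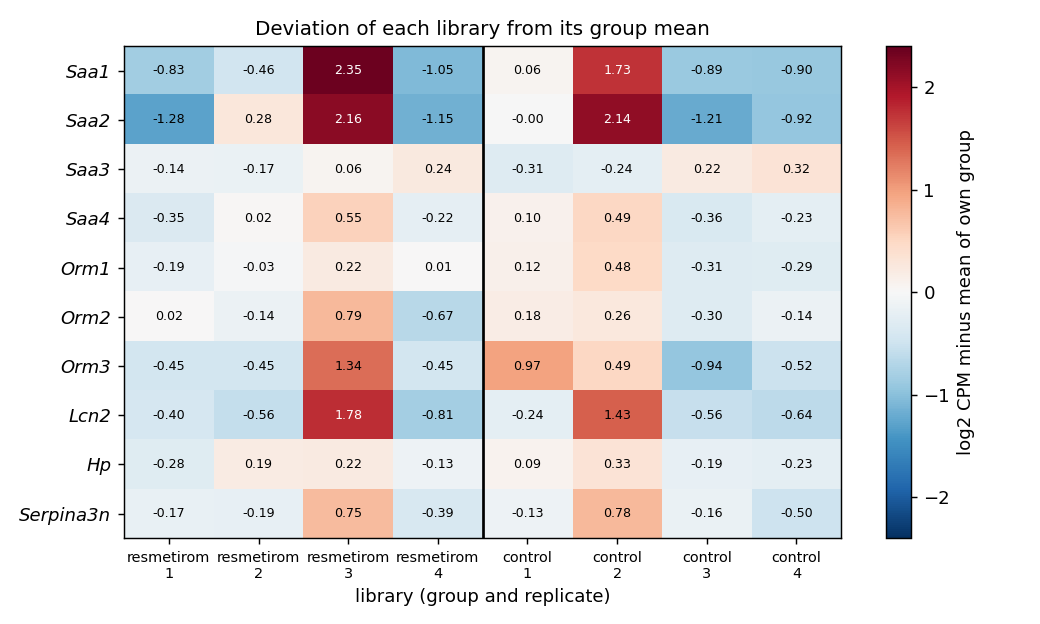
Deviation of each library from the mean of its own group, in log2 CPM with a prior count of 2, for the 10 genes (rows) in 4 resmetirom libraries (left) and 4 control libraries (right). Resmetirom replicate 3 and control replicate 2 were above their group means by about 0.22 or more for every gene but Saa3, where they stood at 0.06 and -0.24.

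**Figure D4:**
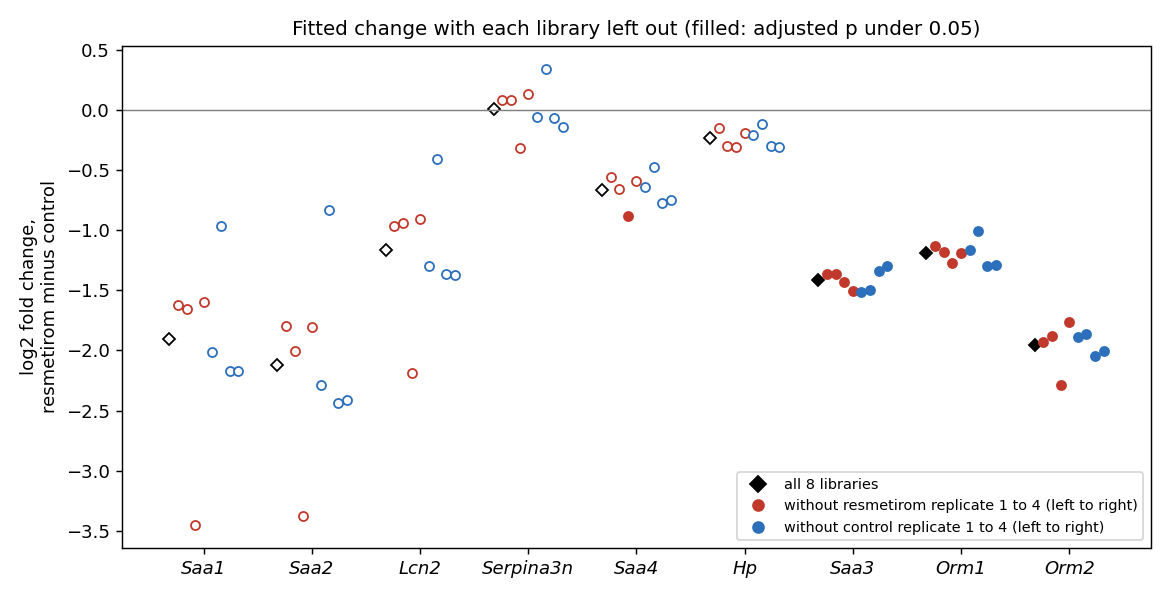
Fitted log2 fold change, resmetirom minus control, of the 9 tested genes with all libraries (black diamonds) and with 1 library left out (red: a resmetirom library, blue: a control library), filled where the edgeR adjusted p was under 0.05. Saa3, Orm1 and Orm2 stayed called throughout, Saa1 ran from -3.45 to -0.96, and Serpina3n lay on either side of 0.

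The excess in these libraries was not limited to the 10 genes. Among 25 other positive acute phase proteins, which are plasma proteins and related hepatocyte products that increase in inflammation, 15 were highest of their group in resmetirom replicate 3 and 14 were highest of theirs in control replicate 2. Fibrinogen chain gene Fga was at 3128, 2412, 5094 and 2996 CPM in resmetirom replicates 1 to 4 and at 3458, 3015, 2541 and 2180 CPM in control replicates 1 to 4. The metal-binding metallothionein gene Mt1 was at 8.74, 9.16, 304 and 9.83 CPM in resmetirom replicates 1 to 4 and at 21.7, 70.1, 20.2 and 15.4 CPM in control replicates 1 to 4. Steap4, a metalloreductase gene, was at 85.8, 61.2, 438 and 67.6 CPM in resmetirom replicates 1 to 4 and at 144, 121, 98.2 and 105 CPM in control replicates 1 to 4. These 3 were chosen after their values were seen. Resmetirom replicate 3 was high in all of them, and control replicate 2 in Mt1. Counted in the same way, resmetirom replicate 3 was highest for 10 of 15 tested genes from interleukin-6 receptors to STAT3. It was highest for 11 of 22 genes leading to NF-kB and for 9 of 15 transcription factors. Control replicate 2 was highest for 4, 5 and 2 of these, and control replicate 1 for 3, 10 and 8. Other libraries stood apart in other lists. Resmetirom replicate 1 was highest of its group for 13 of 15 macrophage and monocyte markers. It was also highest for 8 of 10 stellate cell and fibroblast markers and 7 of 8 endothelial markers. Of 12 negative acute phase proteins, 2 were highest in resmetirom replicate 3 and 3 in control replicate 2. The share over all tested genes is not given here.

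Between the groups, of the 25 other positive acute phase genes, all tested, 1 fell, 0 rose and 24 were not called, with a median log2 fold change of 0.052. Of all tested genes 1.99% fell and 2.6% rose. DESeq2 called 2 of the 25 lower and 0 higher. By edgeR's test 4 of the 25 had an unadjusted p under 0.05, as had 17.8% of all tested genes. The pentraxins, which are plasma opsonins, were at 0.61 (SE 0.25) for Apcs and -0.11 (SE 0.13) for Crp, and neither was called. Lbp, the lipopolysaccharide-binding protein gene, was at -0.34 (SE 0.09, edgeR adjusted p = 0.0554).

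Among 12 negative acute phase proteins, 3 rose, 1 fell and 8 were not called, with a median log2 fold change of 0.22. Of all tested genes 2.6% rose and 1.99% fell. By edgeR's test 7 of the 12 had an unadjusted p under 0.05, as had 17.8% of all tested genes. Rbp4, which encodes the plasma carrier of retinol, averaged 3865 CPM in resmetirom libraries and 2403 CPM in control libraries and had a log2 fold change of 0.69 (SE 0.09, edgeR adjusted p = 0.00102). The paraoxonase gene Pon1 rose by 0.62 (SE 0.10) and the fetuin A gene Ahsg by 0.61 (SE 0.10). Cyp2c29, a cytochrome P450 gene on the same list, fell by 1.26 on the log2 scale (SE 0.18, edgeR adjusted p = 0.00235). All 4 of these genes had groups that did not overlap, as had 11.8% of all tested genes. They were named because they were called on the same libraries, so this separation adds no support. Each of the 3 rises was lost with library sizes as the sole scaling (edgeR adjusted p = 0.0568, 0.0770 and 0.1 for Rbp4, Pon1 and Ahsg). They were also lost by limma on both TPM scales (adjusted p = 0.386, 0.543 and 0.575 on log2(TPM + 1)). Alb was at 0.33 (SE 0.10, edgeR adjusted p = 0.0811) and Ttr at -0.09 (SE 0.12).

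**Figure D5:**
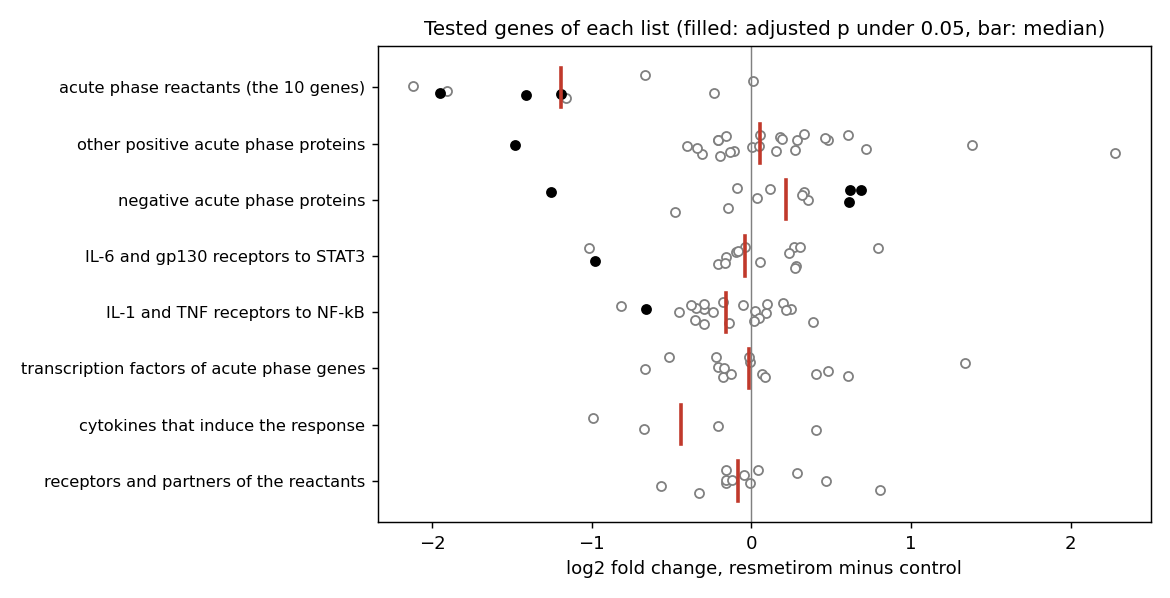
Log2 fold change, resmetirom minus control, of the tested genes of the 10 reactants and of 7 lists of related genes, with filled points at an edgeR adjusted p under 0.05 and a red bar at the median of each list. The median of the reactants was -1.19 and those of the other lists ran from -0.44 to 0.22.

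The signalling genes that lead to the response mostly missed the threshold. Of 15 tested genes of the interleukin-6 and gp130 receptors and STAT3, 0 rose and 1 fell, with a median of -0.038. Of all tested genes 2.6% rose and 1.99% fell. DESeq2 called 2 of the 15 higher and 2 lower. By edgeR's test 5 of the 15 had an unadjusted p under 0.05, as had 17.8% of all tested genes. The gene that fell was Pim1, a kinase gene induced by STAT proteins, at -0.98 (SE 0.25, edgeR adjusted p = 0.0454), and it was lost in 6 of the 8 fits that left out 1 library. Socs3, the STAT3-induced inhibitor of gp130 signalling, was at 4.23, 3.57, 4.00 and 2.91 CPM in resmetirom replicates 1 to 4 and at 13.6, 4.64, 5.86 and 5.69 CPM in control replicates 1 to 4. Its groups did not overlap, but its log2 fold change of -1.02 (SE 0.33, edgeR adjusted p = 0.116) was not called. Socs3 was not high in resmetirom replicate 3 or control replicate 2, where Saa1 was. Il6ra, the interleukin-6 receptor gene, was at 0.79 (SE 0.22, edgeR adjusted p = 0.0717), Il6st, which encodes gp130, at -0.21 (SE 0.12) and Stat3 at 0.28 (SE 0.17).

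Of 22 tested genes from the interleukin-1 and tumour necrosis factor receptors to NF-kB, 1 fell and 0 rose, with a median of -0.16. DESeq2 called as many, and 3 of the 22 had an unadjusted p under 0.05 by edgeR's test. Of all tested genes 1.99% fell and 2.6% rose by that test, and 17.8% had an unadjusted p under 0.05. Il1rap, the accessory chain of the interleukin-1 receptor, was at 54.3, 78.6, 74.6 and 73.6 CPM in resmetirom replicates 1 to 4 and at 114, 110, 111 and 109 CPM in control replicates 1 to 4, without overlap. Its log2 fold change was -0.66 (SE 0.11, edgeR adjusted p = 0.00474), and it was called in every alternative run. The receptor chain gene Il1r1 was at 18.7, 22.02, 117 and 37.4 CPM in resmetirom replicates 1 to 4 and at 62.5, 22.7, 34.4 and 29.3 CPM in control replicates 1 to 4, so that resmetirom replicate 3 was again the highest library and control replicate 2 was the lowest control. It was not called, at 0.39 (SE 0.68). The NF-kB inhibitor gene Nfkbia was at 0.017 (SE 0.14).

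Of 15 tested transcription factors of acute phase genes, 0 were called by edgeR, 2 had an unadjusted p under 0.05, and DESeq2 called 1 higher and 1 lower. Of all tested genes 17.8% had such an unadjusted p by edgeR's test, and DESeq2 called 4.36% higher and 3.37% lower. The C/EBP genes Cebpb, at 73.4, 70.0, 129 and 59.5 CPM in resmetirom replicates 1 to 4, and Cebpd, at 10.9, 7.66, 20.8 and 12.5 CPM in the same libraries, were highest in resmetirom replicate 3. In control replicates 1 to 4 Cebpb was at 76.8, 62.9, 52.3 and 45.6 CPM and Cebpd at 14.1, 7.02, 7.91 and 5.14 CPM, with control replicate 1 and not 2 the highest. Their log2 fold changes were 0.48 (SE 0.26) and 0.60 (SE 0.37). Hnf4a, the hepatocyte nuclear receptor gene, was at 0.41 (SE 0.39), and Foxa1, with the smallest p of the list, at -0.52 (SE 0.14, edgeR adjusted p = 0.0546).

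The inducing cytokines were scarce. Of 10 genes 4 passed the filter, and 0 were called by edgeR or DESeq2, while 2 had an unadjusted p under 0.05, Il1a and Il18. Of all tested genes 17.8% had such an unadjusted p by edgeR's test. Il1a was at 2.17 to 4.34 CPM in resmetirom libraries and 3.54 to 5.93 CPM in control libraries, with a log2 fold change of -0.67 (SE 0.26, edgeR adjusted p = 0.198), and Il1b was at -0.99 (SE 0.47). Il18 lay the other way, at 0.41 (SE 0.17, edgeR adjusted p = 0.240), with 6.64 to 9.42 CPM in resmetirom libraries and 5.24 to 6.54 CPM in control libraries, which did not overlap. Il6 had 4 counts over the resmetirom libraries and 9 over the control libraries, and Il22 had 0 counts in all 8. Tnf, which did not pass the filter, had 5, 3, 1 and 0 counts in resmetirom replicates 1 to 4. In control replicates 1 to 4 it had 8, 7, 13 and 7 counts. The groups did not overlap in CPM, though counts were few. Of 12 tested receptors and partners of the reactants, 0 were called by edgeR or DESeq2 and 0 had an unadjusted p under 0.05. Among these Scarb1, the receptor for high-density lipoprotein, was at -0.16 (SE 0.09).

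Outside the 10 genes, those with at least 10 CPM on average whose log2 CPM ran closest to Saa1 over the 8 libraries were the keratin gene Krt8 (Pearson r = 0.960, Spearman rho = 0.929), Ifitm2 (r = 0.955, rho = 0.905), Zswim8 (r = 0.953, rho = 0.976), Plpp2 (r = 0.943, rho = 0.905) and Atp6v1e1 (r = 0.939, rho = 0.976). For Hp they were Clcn2 (r = 0.965, rho = 0.976), Ggact (r = 0.943, rho = 0.905), Nsun2 (r = 0.942, rho = 0.929), Nfic (r = 0.932, rho = 0.810) and Cyp4f15 (r = 0.928, rho = 0.905). These were the highest values among all genes at that level, they include the difference between the groups, and the points share library depth and scaling, so they are a description. Krt8 was at 144, 191, 359 and 183 CPM in resmetirom replicates 1 to 4 and at 391, 456, 285 and 330 CPM in control replicates 1 to 4.

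In the authors' deposited table, 8 of the 10 genes were lower at an adjusted p under 0.05, all but Lcn2 and Serpina3n, in a table where 32.4% of the 16019 genes with counts were lower by the same rule. Its log2 fold changes were -2.53 for Saa1 (adjusted p = 0.0470), -1.69 for Orm1 and -0.74 for Hp (adjusted p = 0.000208). With limma on log2(TPM + 1), 8 of 9 tested members were called lower, where 38.1% of tested genes were.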

How the data were processed

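The members and gene lists were chosen with earlier results of these data known. The authors deposited whole-number counts per gene and library, TPM (per the file headers, length-corrected values that sum to a fixed total), group means of TPM, a log2 fold change that is the log2 ratio of those means, and a p-value with its adjusted p-value. In no given role or order, the build mm10 and the tools RSEM, edgeR, DESeq2, StringTie 1.3.1, HISAT2 2.1.0, Bowtie2 2.2.8 and fastp 0.18.0 appear in the submitters' processing notes. The sources used here give neither strand handling, nor the tool behind the deposited p-values, nor which of the 2 sequencers named read each library.

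The test on counts was that of edgeR 4.0.16 (R 4.3.3): filterByExpr kept 12207 genes, with TMM factors, robust quasi-likelihood fits (glmQLFTest) and Benjamini-Hochberg adjustment at 0.05. Fold changes are resmetirom minus control, and SE is the ratio of the change to the root of F. Alternatives used other factors, filters, DESeq2 1.42.0, limma 3.58.1 with voom or on log2(TPM + 1) and log2(TPM + 0.1), the replicate number as a block, and each library left out. Genes outside the members were named by rule: up to 5 called genes of each list, or the gene with the smallest p, 9 regulators, and the 5 genes most like Saa1 and most like Hp, while further genes were named after their values were seen. A called gene of the list of other positive acute phase proteins is not reported here. All columns of per-sample values were matched to samples by name. Libraries of 1 group differed by a chi-square per degree of freedom of 13.2 or more. In a simulation over 12106 genes, 18% of genes changed 1.5-fold, 78% changed 2-fold, 98% changed 4-fold and 94% changed 8-fold were recovered. It gave 10 false calls among 154. The simulated libraries differed in depth but had no difference in makeup like that seen in the TMM factors here. The simulation therefore does not cover errors from scaling.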

Additional observations from a re-analysis of the deposited data

Results flagged for a closer look

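Within groups of 4 libraries, 11 values lay far from the other 3 of their group (a gap to the nearest library above 0.829 of the group's range), among 93 groups looked at. For normally distributed values chance flags about 1 in 20 groups. The CPM used here were not log-transformed, and the genes are not independent of each other. The lists were also chosen with earlier results known, so the count of flags cannot be set against that rate. Resmetirom replicate 3 gave 5 of the 11 values: it was high for Saa1 (132 CPM), Lcn2 (48.2 CPM), Serpina3n (605 CPM) and Nfkbia (28.6 CPM), and low for the urea cycle gene Cps1 (4414 CPM). Control replicate 2 was high for Saa2 (192 CPM) and Lcn2 (94.2 CPM). Control replicate 1 was high for Socs3 (13.6 CPM) and Hnf4a (619 CPM), control replicate 3 for the macrophage receptor gene Marco (37.3 CPM), and resmetirom replicate 1 for Cyp2c29 (380 CPM).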

How the results depend on the processing

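Saa3, Orm1 and Orm2 were called lower under all 19 alternatives. Of 176 values of the members under the alternatives, 159 kept their side of the threshold, 14 passed it that had not, and 3 lost a call, all of Orm3. As Orm3 was not tested in the main fit, its values were compared with the fit without a filter on low counts. All 12 values above 0 were of Serpina3n. Members called lower numbered 5 under library sizes as the sole scaling, 8 by limma on either TPM scale (8 with a pseudocount of 1 and 8 with 0.1), and 3 to 5 with 1 library left out, against 3. The 5 without resmetirom replicate 3 were Saa3, Saa4, Orm1, Orm2 and Orm3. Orm3 passed the filter there through control libraries alone, as every remaining resmetirom library had 0 counts. The direction of its call was thus fixed by the filter. Over all genes, library sizes as the sole scaling gave 151 higher calls and 1961 lower ones, DESeq2 gave 532 and 411, log2(TPM + 1) gave 121 and 4654, log2(TPM + 0.1) gave 112 and 3865, and leaving out single libraries gave 182 to 313 and 149 to 238, against 317 and 243. Without control replicate 4 these were 182 and 149, and without resmetirom replicate 4 they were 208 and 161. The median of all tested genes moved to -0.41 with log2(TPM + 1) and to -0.50 with log2(TPM + 0.1). Nfkbia was called at -0.48 and -0.51 on these 2 scales, against 0.017. Of 703 values of other named genes, 36 lost a call and 55 gained one, and of 836 counts and medians of lists 126 moved. The cause was not tested.

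With the replicate number as a block, 3 members were called lower and 0 higher, and 240 and 166 genes were called higher and lower over all. Same-numbered libraries did not deviate together (r over genes of -0.33, 0.18, -0.19 and -0.061), and 1 of 4 resmetirom and 1 of 4 control libraries correlated best with its own number, so the numbers were not taken as pairs. Orm3, Orm2 and the cytokines are limited by depth.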

Other observations

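Metallothioneins moved with the reactants in single libraries. Mt2, like Mt1 a metal-binding protein gene, was at 2.65, 1.56, 201 and 4.34 CPM in resmetirom replicates 1 to 4 and at 11.5, 21.1, 4.64 and 5.79 CPM in control replicates 1 to 4. It was thus high in resmetirom replicate 3, and control replicate 2 was the highest control. It was not called, at 2.28 (SE 1.69), nor was the iron hormone gene Hamp, at 0.72 (SE 0.46), which ran in another order, with 782, 447, 337 and 256 CPM in resmetirom replicates 1 to 4 and 152, 188, 358 and 407 CPM in control replicates 1 to 4. These genes were chosen after their values were seen.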
